A study of Mus musculus with 4 samples.

Results

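Immediate early and stress response transcripts are RNAs that cells raise quickly after a stimulus or an injury, and their sites of N6-methyladenosine (m6A) are described here in glia sorted from mouse cortex. The members were taken by gene name: the Fos and Jun factors, Egr1 to Egr4, the Nr4a nuclear receptors, the Atf and Klf factors, the Ier proteins, the Dusp phosphatases, Btg1 and Btg2, Zfp36 with Zfp36l1 and Zfp36l2, and the Hspa chaperones. A name does not show that a gene is raised in this way, and the names also take in constitutive genes such as Hspa8. Whether the members were induced in these cells was not tested. A total of 38 member genes had at least 1 listed site, of 5526 named genes in the series, and they held 82 distinct sites of 10598. RefSeq has 84 protein-coding mouse symbols that fit these names, so 46 had no site in any library. The same share over all protein-coding genes was not computed. This count and the family counts below therefore do not show whether such genes were listed more or less often than others.

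Fos, Jun, Egr and Nr4a transcription factors are switched on within minutes without new protein synthesis, and their transcripts are short-lived. Their signal is then damped by products of other genes of the same wave: Dusp phosphatases inactivate MAP kinases, Zfp36 proteins bind AU-rich elements and Btg2 recruits the deadenylase complex, both of which speed messenger RNA decay. Hspa genes encode the Hsp70 and Hsp110 chaperones that hold proteins in a foldable state. m6A is an internal mark of messenger RNA that is placed during transcription by the Mettl3 and Mettl14 complex and one of its known roles is to shorten the life of the transcripts that carry it. Enzymatic dissociation of brain tissue is known to induce many of these genes in glia, and papain digestion preceded the sort in every library of this study, per the labels.

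Astrocytes, sorted with an antibody against ACSA2, gave 2 libraries, and microglia, sorted with an antibody against CD11b, gave the other 2. All 4 came from cortex of mice of the genotype APOBEC1-YTH, in which a cytidine deaminase is joined to an m6A-binding domain, that were 10 weeks old when tamoxifen began and received 20 mg/kg every 24 hours on 5 days, with tissue taken 7 days after the last dose. No group lacks the transgene or tamoxifen, and the labels name neither the driver of the transgene nor the number of animals behind a library, so p-values measure only the spread between these libraries, which may be technical. In GLORI, unmethylated adenosine is deaminated and read as G, and the level of a site is the percent of reads that still show A. Each library has 1 table of called sites with their levels, and none gives read coverage, so depth is unknown and no level has a counting interval. Lack of methylation, a level below the calling threshold and lack of reads cannot be told apart at a base that a table does not list. In bulk libraries, fewer cells of a type and less RNA per cell cannot be told apart either.

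The marker sites of the replicate 2 libraries went against their labels. Of 24 astrocyte markers, 22 had a site in the library labelled astrocyte 1 and 1 in astrocyte 2, against 0 in microglia 1 and 17 in microglia 2. Of 24 microglia markers, 3 had a site in astrocyte 1 and 18 in astrocyte 2, against 17 in microglia 1 and 2 in microglia 2. Of 12 oligodendrocyte markers, 10 were listed in astrocyte 1 and 0 in astrocyte 2, against 0 in microglia 1 and 9 in microglia 2, and of 10 endothelial and mural markers 4 and 0, against 0 and 4. Of 15 neuron markers, astrocyte 1 listed 4 and astrocyte 2 listed 0, against 1 for microglia 1 and 0 for microglia 2. Library names below are the labels, positions are bases of the mouse build mm39 without exon or UTR annotation, values are given for each library, and the comparisons of site share, gene share, median level and recurring bases are also given for replicate 1 alone. The part of these markers in the results on early response genes was not tested.

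Member genes carried 28 sites in 22 genes of astrocyte 1 and 27 sites in 15 genes of astrocyte 2, against 15 sites in 10 genes of microglia 1 and 21 sites in 16 genes of microglia 2. As a share of all named-gene sites this was 0.585% in astrocyte 1 (exact 95% binomial interval 0.389 to 0.844) and 1.15% in astrocyte 2 (0.759 to 1.67), against 1.41% in microglia 1 (0.79 to 2.31) and 0.555% in microglia 2 (0.344 to 0.848). Astrocyte 2 and microglia 1, the libraries with most microglia marker genes, had the higher shares, and the other pair had the lower ones. These 2 libraries also had the fewest named-gene sites, 2348 in astrocyte 2 and 1066 in microglia 1. Astrocyte 1 had 4790 and microglia 2 had 3782, and the part of the markers or of these totals was not tested. The intervals of the high and low libraries overlap narrowly, and they cover the counting of sites only. Compared as labelled, the astrocyte libraries averaged 0.867% and the microglia libraries 0.981%, a difference of -0.114 percentage points (two-sided exact permutation test, p = 1). In replicate 1 alone the difference was -0.823 points, and a comparison of 2 libraries with 2 cannot give a p below 0.33.

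Counted by gene, the spread between libraries was smaller. Member genes were 0.698% of the named genes with a site in astrocyte 1 and 0.874% in astrocyte 2, against 1.06% in microglia 1 and 0.613% in microglia 2, and all 4 intervals overlap. The difference between the labels was -0.0525 points (two-sided exact permutation test, p = 1) and -0.366 points in replicate 1 alone. Sites per member gene stood at 1.27 in astrocyte 1 and 1.8 in astrocyte 2, against 1.5 in microglia 1 and 1.31 in microglia 2, where all named genes stood at 1.52 and 1.37, against 1.13 and 1.45. The libraries with more sites per member gene were those with fewer sites per named gene, a description of 4 libraries without a test.

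**Figure D1:**
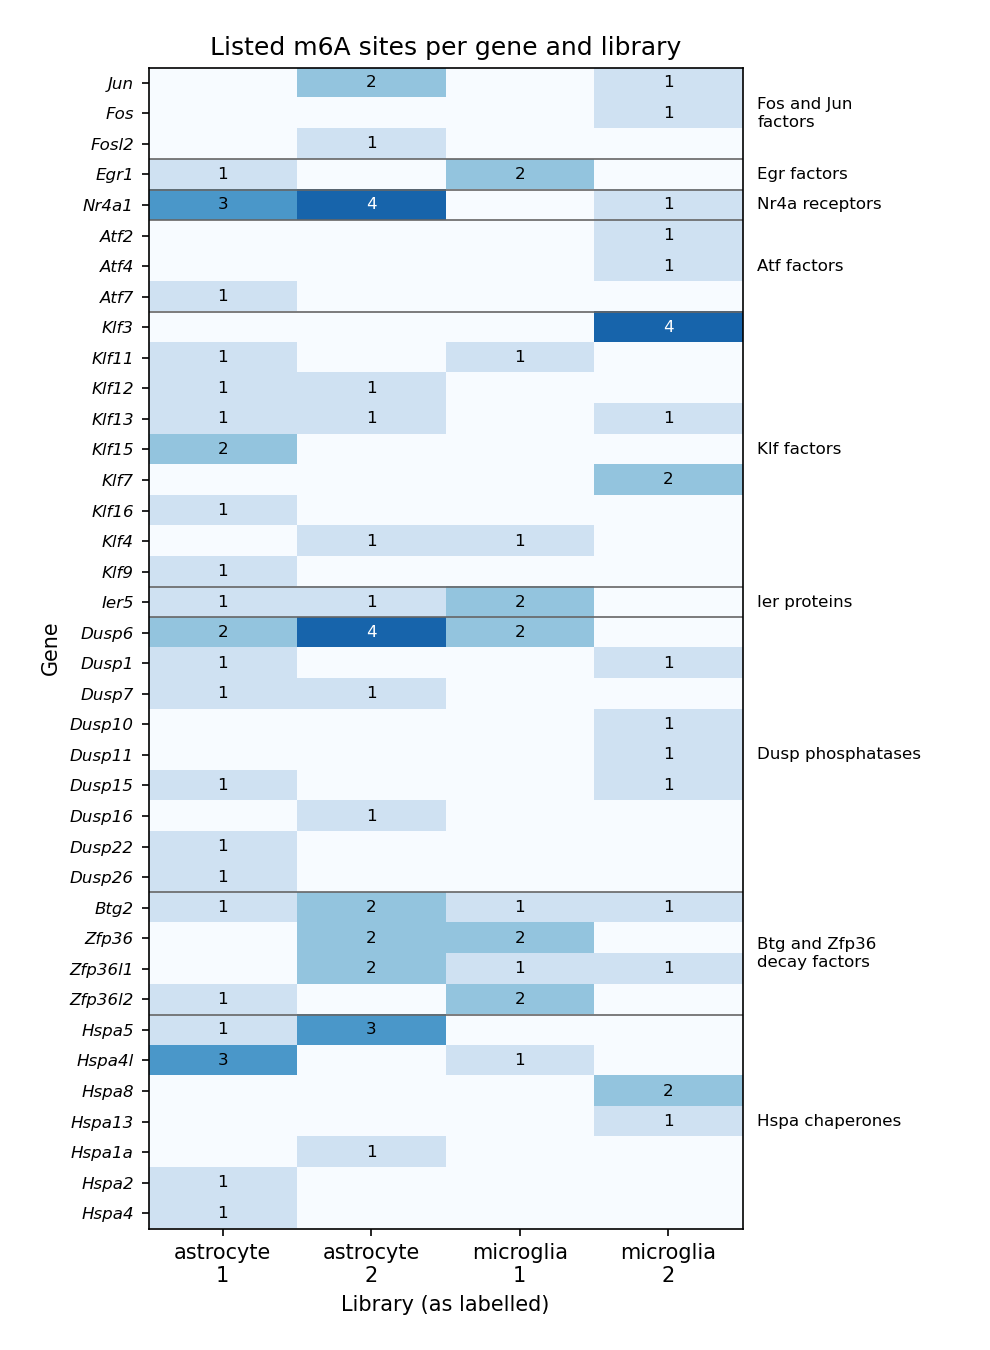
Number of listed m6A sites in each of the 38 genes (rows, grouped by family) in each library (columns, as labelled), with empty cells for no listed site. Btg2 is the only gene filled in all 4 columns, Dusp6 and Nr4a1 hold up to 4 sites in astrocyte 2, and the 4 sites of Klf3 all lie in microglia 2.

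Sites recurred at the same base in few cases. Of the 82 member sites, 73 were listed in 1 library and 9 in 2 libraries, and 0 in 3 or 4. The 9 sites are 11% of the members, against a background of 9.72% of all 10598 named-gene sites listed in 2 or more libraries, so recurrence was near that of named genes at large. Each of the 9 joined a library labelled astrocyte to a library labelled microglia, as did 919 of the 1030 recurring named-gene sites. Sites listed under both labels were thus 11% of the members, against a background of 8.67% of all named-gene sites. No member site was listed in both astrocyte libraries and no microglia library, where the background is 0.651%, and none in both microglia libraries and no astrocyte library, where it is 0.396%. In all 4 libraries 0 member sites were listed, against a background of 0.783%.

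The limma test of level between the labels, fitted over sites listed in all 4 libraries, therefore included no member site. It called 0 of 354 tested sites, a background of 0%, where 16 sites had a raw p under 0.05 and the lowest adjusted p was 0.457. Of the 1100 sites listed in all 4 libraries only 83 lay in named genes, and limited to these the test called 0 of 48. The test used the labels, which the markers of the replicate 2 libraries contradict. It therefore cannot show whether levels differ between the cell types. With 82 distinct sites in these transcripts, no base gave a test of astrocytes against microglia. The levels at the 9 recurring bases are each a comparison of 2 libraries and have no replicate check.

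All 9 recurring bases had the 3-mer GAC on the transcript strand, where the A is the methylated base, although 20 of the 82 member sites had AAC. In all named genes 360 of 1030 recurring sites had AAC. The level was higher in the library labelled astrocyte at 2 bases, lower at 6 and equal at 1, with a median difference of -16.2 points. Over the 644 named-gene sites listed in exactly 1 library of each label it was higher at 278, lower at 215 and equal at 151, with a median difference of 0 points. These directions follow the labels, which the markers of the replicate 2 libraries contradict. In the replicate 1 libraries only the bases of Egr1 and Hspa4l recurred, each 20 points lower in astrocyte 1, which is 7.14% of the member sites of astrocyte 1 and 13.3% of those of microglia 1, where all named-gene sites shared 6.95% and 31.2%. The bases of Dusp15 and Klf13 joined astrocyte 1 to microglia 2, the libraries with most astrocyte markers, and those of Ier5 and Klf4 joined astrocyte 2 to microglia 1, the libraries with most microglia markers. Those of Jun, Nr4a1 and Zfp36l1 joined the replicate 2 libraries, whose marker sites ran opposite to their labels. The tally of higher and lower bases therefore does not give a direction between the cell types. The SD of the difference over sites was 23.6 points for the 9 bases and 22.5 points for the 644, and all the single differences but that of Nr4a1 were smaller than these SDs.

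**Figure D2:**
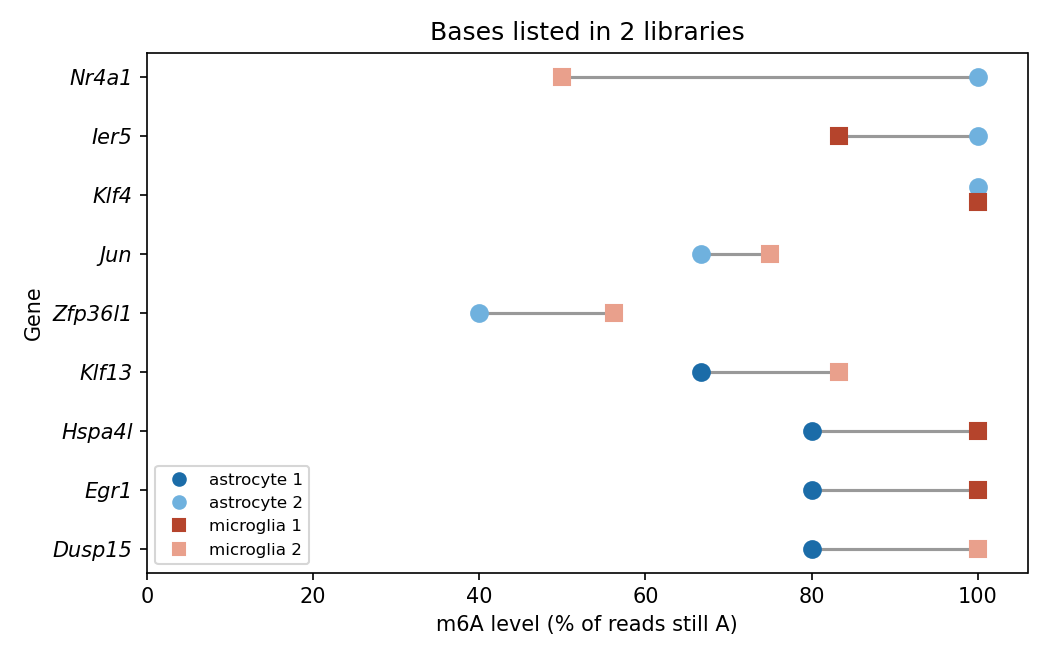
Level in percent (horizontal axis) at the 9 bases that 2 libraries listed, 1 row per gene, with circles for libraries labelled astrocyte and squares for those labelled microglia. Nr4a1 has the widest gap, at 100% in astrocyte 2 and 50% in microglia 2, and the symbols of Klf4, both at 100%, are drawn slightly apart so that each can be seen.

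Among the Fos and Jun factors, which pair to form the transcription factor AP-1, sites were listed in 3 of 7 genes, and both libraries with such sites were replicate 2. Jun had 2 sites in astrocyte 2 and 1 in microglia 2, on the minus strand of chromosome 4. The GAC at position 94939823 stood at 66.7% in astrocyte 2 and 75% in microglia 2, and the GAC at 94940337, 514 bases upstream in the direction of transcription, at 35.7% in astrocyte 2. Fos had 1 site, at 71.4% in microglia 2 (chromosome 12, position 85522995, GAC), and Fosl2 had 1, at 100% in astrocyte 2 (chromosome 5, position 32310671, GAC). Fosb, Fosl1, Junb and Jund had no listed site, and neither replicate 1 library listed any gene of this family.

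Egr1, a zinc finger factor that responds to growth factors and neuronal activity, was listed in the replicate 1 libraries and in neither replicate 2 library. Its GAC at position 34995858 of chromosome 18 (plus strand) stood at 80% in astrocyte 1 and 100% in microglia 1. The AAC at position 34995852, 6 bases upstream, stood at 100% in microglia 1 and was not listed in astrocyte 1. Egr2, Egr3 and Egr4 had no site. The libraries that listed Egr1 listed no Fos or Jun gene, and those that listed Jun did not list Egr1. Few sites stand behind this, and 61.1% of all named genes and 90.3% of their sites were listed in 1 library only.

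Nr4a1, an orphan nuclear receptor induced by many stimuli, had 7 distinct sites, all GAC, on the plus strand of chromosome 15 within 3979 bases. Astrocyte 1 listed 3 of them, at position 101168139 with 30%, at 101168286 with 100% and at 101168468 with 42.9%. Astrocyte 2 listed 4 others, at position 101168492 with 100%, at 101170986 with 72.7%, at 101172076 with 83.3% and at 101172118 with 100%. Microglia 1 listed none, and microglia 2 listed the base 101172118 alone, at 50%. The sites of astrocyte 1 all lay at the 5′ end of this stretch and those of astrocyte 2 downstream of them, with the nearest bases of these libraries 24 bases apart. These libraries also shared few of all named-gene sites, 4.97% of those of astrocyte 1 and 10.1% of those of astrocyte 2. Coverage along the gene is unknown, and the markers of astrocyte 2 went against its label. Nr4a2 and Nr4a3 had no site.

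The Atf factors, leucine zipper proteins of the stress response, each had 1 site where listed. Atf4, the main effector of the integrated stress response, stood at 50% in microglia 2 (chromosome 15, position 80140544). Atf2, a target of stress-activated kinases, stood at 42.9% in microglia 2, and its relative Atf7 at 60% in astrocyte 1. Atf1, Atf3, Atf5 and Atf6 had no site, and astrocyte 2 and microglia 1 listed no Atf gene.

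Of 17 Klf genes, Krüppel-like zinc finger factors that bind GC-rich promoters, 9 had a site. They held 7 sites in astrocyte 1 and 3 in astrocyte 2, against 2 in microglia 1 and 7 in microglia 2. Klf4, a factor of the stress response and of cell identity, had 1 site, the GAC at position 55530494 of chromosome 4 (minus strand), at 100% in astrocyte 2 and 100% in microglia 1. Klf13 had a recurring GAC at position 63537721 of chromosome 7 (minus strand), with 66.7% in astrocyte 1 and 83.3% in microglia 2. A second base of Klf13 2665 bases upstream, at 63540386, stood at 71.4% in astrocyte 2.

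Klf3, a transcriptional repressor, had 4 sites in microglia 2 and none elsewhere, on the plus strand of chromosome 5. They stood at 45.5% at position 64986435, 100% at 64988229, 50% at 64988239 and 66.7% at 64989391, and the middle ones, both AAC, lay 10 bases apart. Klf15, a factor induced by glucocorticoids, had 2 sites in astrocyte 1 at 36.4% and 41.7%, and Klf7, a factor of neuronal differentiation, had 2 in microglia 2 at 42.9% and 60%. Klf11 stood at 100% in astrocyte 1 and 26.7% in microglia 1, at bases 5698 apart, and Klf12 at 100% in astrocyte 1 and 59.1% in astrocyte 2, at bases 158944 apart. Such distances are genomic and may include introns, since no annotation of the build mm39 was used. Klf9 at 33.3% and Klf16 at 100% each had 1 site in astrocyte 1. Klf2, Klf5, Klf6 and Klf10 were among the 8 Klf genes without a site.

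Ier5, a regulator of heat shock factor 1, was the only Ier gene with a site, and all 3 of its sites were GAC on the minus strand of chromosome 1. The base 154973813 stood at 100% in astrocyte 2 and 83.3% in microglia 1. Astrocyte 1 listed the base 154973706 at 100%, 107 bases away, and microglia 1 also listed 154974288 at 66.7%. Microglia 2 listed none. Ier2, Ier3 and Ier5l had no site.

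Dusp phosphatases had sites in 9 of 24 genes. Dusp6, which dephosphorylates ERK in the cytoplasm, had 8 distinct sites, the most of any member, all GAC on the plus strand of chromosome 10 within 3359 bases. Astrocyte 1 listed the last, at 75% for position 99102890 and 100% for 99103026. Astrocyte 2 listed 4 upstream of these, at 61.9% for position 99099805, 76.2% for 99100530, 80% for 99102052 and 66.7% for 99102369. Microglia 1 listed the most 5′ ones, at 100% for position 99099667 and 28.6% for 99099799. Microglia 2 listed none, and no base was shared although astrocyte 2 at 99099805 and microglia 1 at 99099799 came within 6 bases of each other. The listed bases of the 3 libraries thus lay in consecutive stretches that did not overlap. Among all named genes listed in 2 or more libraries, 1214 of 2152 likewise had no shared base, and coverage along the gene is unknown.

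Dusp1, a nuclear phosphatase of MAP kinases and a classical immediate early gene, stood at 80% in astrocyte 1 at position 26725182 of chromosome 17 and at 50% in microglia 2 at position 26725533, 351 bases apart on the minus strand. Dusp7, another ERK phosphatase, stood at 60% in astrocyte 1 and 80% in astrocyte 2, at bases 3229 apart. Dusp15 was the only phosphatase with a recurring base, at position 152785149 of chromosome 2 (minus strand, GAC), with 80% in astrocyte 1 and 100% in microglia 2. Astrocyte 1 and microglia 2 listed most astrocyte markers and also oligodendrocyte markers, as given above. The cell type behind this base was not tested. In RefSeq's annotation of the build GRCm38 Dusp15 overlaps Ttll9.

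The remaining phosphatases had 1 site in 1 library each. Dusp16, a phosphatase of JNK and p38, stood at 22.2% in astrocyte 2 and Dusp10, with the same substrates, at 66.7% in microglia 2. Dusp11, which acts on RNA 5′ triphosphates, stood at 27.3% in microglia 2. Dusp22 at 50% and Dusp26 at 100% were listed in astrocyte 1. Dusp2, Dusp4, Dusp5 and Dusp8 were among the 15 Dusp genes without a site.

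Of the 5 genes for messenger RNA decay factors, 4 had a site, with 2 in astrocyte 1 and 6 in astrocyte 2, against 6 in microglia 1 and 2 in microglia 2, which is 7.14% and 22.2% of the member sites of the astrocyte libraries and 40% and 9.52% of those of the microglia libraries. Btg2, an antiproliferative adaptor of the deadenylase complex, was the only member listed in all 4 libraries, 2.63% of members against a background of 2.37% of named genes. Its level was 100% in astrocyte 1 and 46.2% and 100% at separate bases of astrocyte 2, against 37.5% in microglia 1 and 27.8% in microglia 2. These 5 bases on the minus strand of chromosome 1 were all different: 134004958 in astrocyte 1, 134005133 and 134006662 in astrocyte 2, 134004043 in microglia 1 and 134003999 in microglia 2. Those of the libraries labelled microglia lay 44 bases apart, at the 3′ end of the listed stretch, and had the lowest levels of the gene. Each is 1 site in 1 library, and the markers of microglia 2 went against its label. These values therefore do not describe a cell type.

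Zfp36, which encodes tristetraprolin, was listed in astrocyte 2 and microglia 1 only, at 4 different bases within 616 bases on the minus strand of chromosome 7. Astrocyte 2 had 57.7% at position 28077468 and 22.7% at 28076852, and microglia 1 had 50% at 28077231 and 80% at 28077081. Its relative Zfp36l1 recurred at position 80155777 of chromosome 12 (minus strand, GAC), with 40% in astrocyte 2 and 56.2% in microglia 2. It had further bases at 74.2% in astrocyte 2 (80156512) and 66.7% in microglia 1 (80159691). Zfp36l2 stood at 100% in astrocyte 1 (chromosome 17, position 84492954, AAC), and at 50% and 100% in microglia 1 at the GAC bases 84493303 and 84493315, which lie 12 bases apart. Btg1 had no site.

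**Figure D3:**
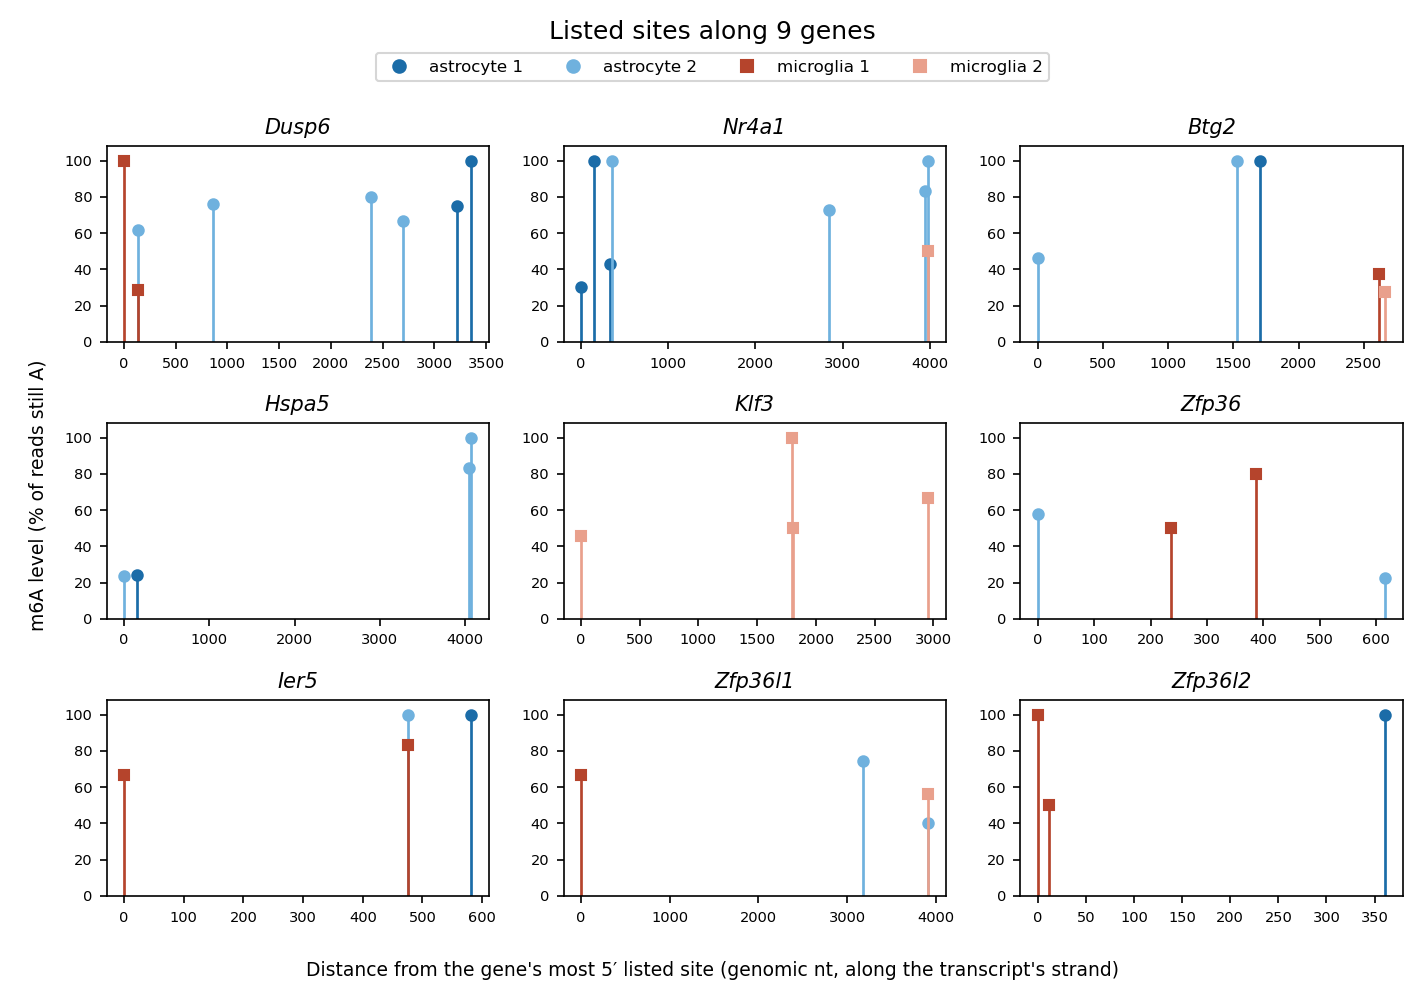
Level in percent (vertical axis) against distance in genomic bases from the most 5′ listed site, along the strand given in the tables, for 9 of the 10 genes with most distinct sites. Hspa4l, whose sites span 39680 bases, is left out; each stem is a site in a library, and the stems of different libraries rarely stand at the same base.

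Among the Hspa chaperones, 7 of 13 genes had a site. Hspa5, the chaperone BiP of the endoplasmic reticulum, had 1 site in astrocyte 1 and 3 in astrocyte 2, and none in a microglia library. Its bases 34662285 at 24% in astrocyte 1 and 34662127 at 23.5% in astrocyte 2 lay 158 bases apart on the plus strand of chromosome 2, with levels near each other. Some 3890 bases downstream astrocyte 2 listed the AAC bases 34666175 at 83.3% and 34666201 at 100%. Hspa4l, of the Hsp110 group, was listed at position 40739759 of chromosome 3 (plus strand, GAC) at 80% in astrocyte 1 and 100% in microglia 1, and had 2 more bases in astrocyte 1, at 42.9% and 90%.

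The lowest levels of all members were in Hspa8, the constitutive Hsc70, with 19.4% and 17.6% in microglia 2 at bases 105 apart (chromosome 9, positions 40714581 and 40714686). RefSeq places the small nucleolar RNA genes Snord14c, Snord14d and Snord14e inside Hspa8. Hspa1a, the stress-inducible Hsp70, had 1 site at 57.1% in astrocyte 2. Its near-identical copy Hspa1b had none, and reads of these copies cannot be separated with certainty. Hspa2 at 100% and Hspa4 at 28.6% were listed in astrocyte 1, and Hspa13 at 80% in microglia 2.

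Gene names are those in the tables, and 13 of the 38 members overlap another gene in RefSeq's GRCm38 annotation. Among those described above, Dusp6 overlaps Gm34921, Hspa5 overlaps Rabepk, Klf13 overlaps E030018B13Rik and Gm27252, and Klf3 overlaps Gm31684 and Gm38457.

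By gene, 18 of 38 members were listed in 2 or more libraries (47.4%, against a background of 38.9%), and 15 under both labels (39.5%, against a background of 34%). Of those 18, 9 had a shared base and 9 had different bases only, namely Btg2, Dusp1, Dusp6, Dusp7, Hspa5, Klf11, Klf12, Zfp36 and Zfp36l2. In all named genes 938 of 2152 had a shared base. The genes in both astrocyte libraries and no microglia library were Dusp7, Hspa5 and Klf12, which is 7.89% of members against a background of 4.09%, and 0 genes showed the reverse, where the background is 0.869%. Those 3 genes rest on the replicate 2 library whose markers went against its label.

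Pairs of libraries shared between 2 and 8 member genes. Astrocyte 1 shared 8 with astrocyte 2, which is 36.4% of the genes of astrocyte 1 and 53.3% of those of astrocyte 2, where all named genes shared 21.8% and 40.1%. The microglia libraries shared 2, Btg2 and Zfp36l1, which is 20% of the genes of microglia 1 and 12.5% of those of microglia 2, where all named genes shared 34.6% and 12.5%. Astrocyte 1 shared 7 with microglia 1, or 31.8% and 70% of their member genes, where named genes shared 14.1% and 47.1%. It shared 5 with microglia 2, or 22.7% and 31.2%, below the 44% and 53.1% of named genes. Astrocyte 2 shared 6 with microglia 1, or 40% and 60%, against 18.9% and 34.6% of named genes, and 5 with microglia 2, or 33.3% and 31.2%, against 34.6% and 22.8%. The 6 genes of astrocyte 2 and microglia 1 were Btg2, Dusp6, Ier5, Klf4, Zfp36 and Zfp36l1, and of these only Ier5 and Klf4 shared a base.

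Levels over all member sites had a median of 80% in astrocyte 1 and 72.7% in astrocyte 2, against 80% in microglia 1 and 50% in microglia 2. All named-gene sites had medians of 66.7% and 80%, against 100% and 58.9%, so members stood above that median in astrocyte 1 and below it in the other 3 libraries. The lowest and highest member levels were 24% and 100% in astrocyte 1, 22.2% and 100% in astrocyte 2, 26.7% and 100% in microglia 1, and 17.6% and 100% in microglia 2. The mean of the library medians was 76.4% for the astrocyte label and 65% for the microglia label, a difference of 11.4 points (two-sided exact permutation test, p = 1). In replicate 1 alone the difference was 0 points.

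Sites read as fully methylated were 10 of 28 in astrocyte 1 and 7 of 27 in astrocyte 2, against 6 of 15 in microglia 1 and 2 of 21 in microglia 2. As shares these were 35.7% (exact 95% interval 18.6 to 55.9) and 25.9% (11.1 to 46.3), against 40% (16.3 to 67.7) and 9.52% (1.17 to 30.4). All named-gene sites stood at 27.3% and 37.9%, against 60.3% and 15.3%, and the named-gene value lay inside the interval of the members in each of the 4 libraries. Coverage is unknown, and its part in levels of 100% was not tested.

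**Figure D4:**
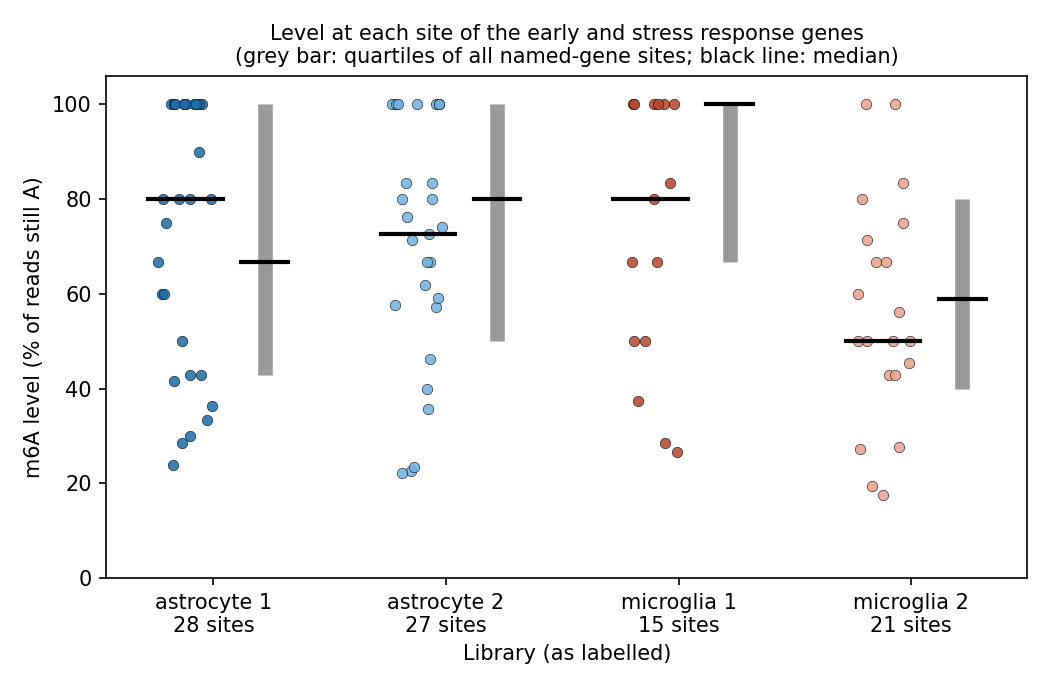
Level in percent (vertical axis) of every member site in each library, 1 point per site, with the member median as a black line on the left and, on the right, the quartiles (grey bar) and median (black line) of all named-gene sites. Member levels run from near 20% to 100% in each library, and microglia 2 has the lowest member median, 50%.

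By sequence, 62 member sites had GAC and 20 had AAC. AAC made up 24.4% of member sites (exact 95% interval 15.6 to 35.1) and 32.7% of named-gene sites, which lies inside that interval. By library it was 28.6% in astrocyte 1 and 18.5% in astrocyte 2, against 20% in microglia 1 and 19% in microglia 2, where named-gene sites stood at 32.4% and 35%, against 43.2% and 30.6%. The member value was below the named-gene value in all 4 libraries, and only 3 to 8 AAC sites per library stand behind it. None of the 82 sites lay in sequence that the tables print in lower case, which marks repeats. An approximate upper limit for a count of 0, taken as 3 sites of 82, is 3.66%. It is not the exact interval used for the other shares, and it treats sites of the same gene as independent. In named genes 4.89% of sites lay in such sequence, and a difference from the members was not tested.

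The spacing of sites within a gene varied widely. Of the 82 sites, 16 (19.5%) had another listed site of the same gene within 100 bases, against 14.4% of named-gene sites, and the median gap between neighbouring sites of a gene was 413 bases. The closest were Egr1 and Dusp6 at 6 bases, Klf3 at 10 and Zfp36l2 at 12. Of the 8 gaps up to 100 bases, those of Klf3, Hspa5 and Zfp36l2 lay within a library, as did the Egr1 gap in microglia 1 and the gap of 42 bases in Nr4a1 in astrocyte 2. Those of Btg2 and Dusp6, and the gap of 24 bases in Nr4a1, lay between libraries that listed 1 base each.

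Other genes of the same responses were taken from fixed lists outside the name rule. In the list of other early response genes, 17 of 30 had a site, with 10 in astrocyte 1 and 5 in astrocyte 2, against 4 in microglia 1 and 9 in microglia 2. Named genes with a site numbered 3152 for astrocyte 1 and 1716 for astrocyte 2, against 940 for microglia 1 and 2609 for microglia 2. As a share of these the list made up 0.317% and 0.291%, against 0.426% and 0.345%. Sgk1, a kinase induced by glucocorticoids, was listed in all 4 libraries, and its base 21875474 of chromosome 10 stood at 61.1% in astrocyte 1 and 19.2% in microglia 2. Errfi1, a feedback inhibitor of the EGF receptor, had a base on chromosome 4 (150951113) at 66.7% in astrocyte 1 and 33.3% in microglia 2. Arid5b, a DNA-binding cofactor, had a base on chromosome 10 (67934364) at 100% in astrocyte 1 and 100% in microglia 1. Tob1, an antiproliferative relative of Btg2, had no recurring base, with 7 sites in astrocyte 1 and none elsewhere. Of all named genes, 61.1% were listed in 1 library only.

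In the list of other heat shock and stress genes, 12 of 32 had a site, with 6 in astrocyte 1 and 5 in astrocyte 2, against 2 in microglia 1 and 8 in microglia 2. These were 0.19% and 0.291% of named genes with a site, against 0.213% and 0.307%. Recurrence of a base in 3 libraries, which no member site reached, was found at 2 of the 24 distinct sites of this list, in Ddit4 and Txnip. The background is 1.81% of named-gene sites listed in 3 libraries. Ddit4, a stress-induced inhibitor of mTORC1, stood at position 59786513 of chromosome 10 at 95.7% in astrocyte 1 and 100% in astrocyte 2, against 78.8% in microglia 2. Txnip, which binds thioredoxin and responds to glucose, stood at position 96468195 of chromosome 3 at 62.5% in astrocyte 1, against 100% in microglia 1 and 81.2% in microglia 2. Herpud1, a gene of the unfolded protein response, stood at position 95121425 of chromosome 8 at 33.3% in astrocyte 1 and 50% in microglia 2.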

How the data were processed

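The 4 deposited tables, 1 per library, have 7 columns without a header. The level is a fraction, which the authors deposited without coverage or counts, and is given here as a percent. GLORI-Tools made the site calls, per the labels' series design text, and the submitters' processing notes name STAR and mm39. No source used here gives the calling thresholds, and the lowest levels listed were 10% to 10.05%. Depth is unknown.

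Positions are the end column, the 1-based mm39 base. No mm39 genome or annotation was used, so the sequence shown is the 3-mer of each row. All 38 member symbols matched RefSeq of GRCm38, used only for names and neighbouring genes. Libraries were matched by chromosome, base and strand with Python 3.11.15 and pandas 2.3.3. Levels were tested with limma 3.58.1 on log2 odds, limited to 0.01 and 0.99, without sites that tied within both labels, at a Benjamini-Hochberg threshold of 0.05. The test was checked on simulated data. Single values had two-sided exact permutation tests. Alternatives were each library left out, a level floor of 20%, sites below 100%, other limits, named genes only, tied sites kept, a replicate block and other denominators or units. A minimum coverage could not be set. Genes described in full had a recurring base or were among the 10 with most sites. Members, lists and tests were chosen with earlier results of these data known.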

Additional observations from a re-analysis of the deposited data

How the results depend on the processing

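Most results over both replicates turned on single libraries. The member share of named-gene sites, astrocyte minus microglia, was -0.114 points and ran from -0.54 to 0.312 with 1 library left out. It turned positive without astrocyte 1 (0.169) and without microglia 1 (0.312), and with all sites as the denominator (0.055), whose construction adds sites outside named genes. The gene share (-0.0525 points) ran from -0.278 to 0.173 and turned positive without astrocyte 1 (0.0356) and without microglia 1 (0.173). The median level difference (11.4 points) ran from -3.64 to 26.4 and turned without microglia 2 (-3.64). It was 0 in replicate 1 alone, a setting chosen after seeing the data. The cause was not tested.

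Member sites in both astrocyte libraries and no microglia library numbered 0, and 0 to 24 with 1 library left out, where a lone library stands for its label. They numbered 26 in replicate 1 alone, and 3 when genes were counted. The reverse count was 0, 0 to 16 with 1 left out and 13 in replicate 1 alone. The limma count stayed at 0 in each of its 10 alternatives, and replicate 1 alone leaves it no residual degrees of freedom.

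With the replicate block the share difference was -0.114 points (exact within-replicate permutation p = 1) and limma called 0. Deviations of same-numbered libraries correlated at -0.0967 over 1100 sites, of which 746 were tied within both labels. This value cannot show whether the numbers are pairs, because the markers of the replicate 2 libraries went against their labels. The main tests did not take the numbers as pairs. Unknown coverage limits every level.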
